A study of Mus musculus with 18 samples.

Results

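DNase footprints gained by MEL cells after DMSO, inside chromatin that was already open, were mostly weak, narrow and away from PU.1 peaks. A DNase footprint is a short stretch inside an open site that the enzyme DNase I cuts less than its flanks, as happens where a protein sits on the DNA. The footprints described here are those of the day 5 list that overlap no day 0 footprint and that overlap, by at least 1 bp, a DNase hypersensitive site of the day 5 list and one of the day 0 list. They numbered 40930, or 25.9% of the 158217 footprints of day 5 and part of 313982 footprints listed over both days. They are called gained footprints below. They were chosen by the DNase footprint and site lists of both days, so their scores, widths and site scores are described without a test.

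MEL is a mouse erythroleukemia line, and all samples came from this 1 line. The day 5 cells had spent 5 days in 2% dimethyl sulfoxide (DMSO), which induces hemoglobin in this line per the labels, and the day 0 cells were untreated. Each day had 2 biological replicates each of DNase-seq, PU.1 ChIP-seq, RNA-seq and polymerase II ChIA-PET. Footprints and ChIA-PET edges came as 1 list per day, so neither has a replicate check.

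In red cell precursors, open sites gather factors such as GATA1, TAL1 and KLF1, and a site can change its bound factors without closing. PU.1 is an ETS family factor of myeloid and lymphoid cells that holds back erythroid maturation in MEL cells. ChIA-PET against RNA polymerase II lists pairs of regions, called edges between vertices, whose DNA was joined in the same polymerase-bound complex.

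RNA markers of the labelled cell type were present. All 11 erythroid markers reached 1 FPKM in both day 5 libraries and 9 of 11 in both day 0 libraries, with summed levels of 30569.9 and 25984.9 FPKM on day 5, against 1870.0 and 1320.1 FPKM on day 0. The 7 myeloid markers summed to 0.629 and 2.09 FPKM on day 5 and to 1.22 and 1.32 FPKM on day 0, and Csf1r, Mpo, Lyz2 and Elane, which mark macrophages and granulocytes, were listed at 0 in all 4 libraries. The 4 lymphoid markers summed to 0 in both day 5 libraries and to 5.76 and 2.04 FPKM on day 0, the 2 mast cell markers to 0.383 and 0.376 FPKM on day 5 and to 10.2 and 6.13 FPKM on day 0, and the 3 fibroblast and epithelial markers to 0 in both day 5 libraries and to 0.803 and 0.295 FPKM on day 0. The erythroid, lymphoid, mast cell and fibroblast and epithelial sums did not overlap between days, while both day 0 myeloid sums lay between the day 5 ones. The lymphoid sums rested mostly on Thy1, at 5.57 and 2.04 FPKM on day 0. The mast cell sums were Hdc alone, with Cpa3 at 0 in all 4 libraries. Epcam and Col1a1 made up the fibroblast and epithelial sums, each below 1 FPKM in every library. How often other genes fail to overlap between days was not tested. The part of these lists in the footprint results was not tested.

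Gained footprints lay close to the score limit of the list. The score is the authors' value, negative, with lower values for stronger footprints, and the list stops at -20. The median score was -24.25 for gained footprints, against -53.7 on day 5 for the 113013 footprints kept from day 0 in sites open on both days. The 34334 footprints lost from such sites had a median of -25.0 on day 0. The gained and lost medians thus lay close together, and the kept median was stronger than both. Scores from -20 to -21 held 6234 gained footprints, or 15.2%. A score of -30 or lower was reached by 8536 gained footprints (20.9%), against 77.8% of kept and 28.1% of lost footprints. At scores of -100 or lower there were 70 gained footprints, or 0.171%, against 31.6% of kept footprints.

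**Figure D1:**
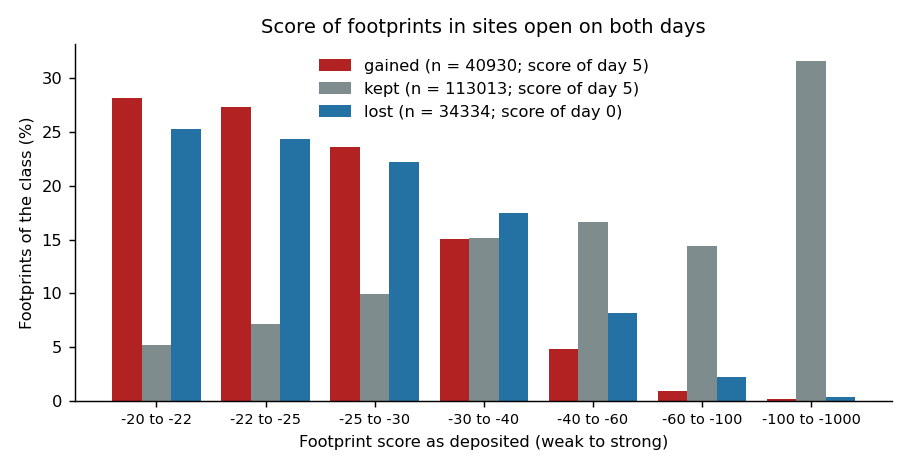
Share of each footprint class (vertical axis, percent of the class) by deposited footprint score (horizontal axis, weak to strong) for gained, kept and lost footprints in sites open on both days. Gained and lost bars fall off together towards strong scores, while 31.6% of kept footprints sit at -100 or lower.

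Read the other way, the share of day 5 footprints that were gained depended on the score. Of the day 5 footprints in sites open on both days with scores of -20 to -22, 66.4% were gained. That share was 46.4% at -25 to -30, 9.40% at -40 to -60 and 0.195% at -100 or lower. The 3 gained footprints nearest the limit, all at -20, were 11, 19 and 25 bp wide and lay on chromosomes 17, 12 and 12. The footprints just beyond that limit are not in the list, so a footprint that crossed it by a small step and one that appeared from nothing cannot be told apart.

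Width followed the score. Gained footprints had a median width of 25 bp (quartiles 19 and 25, range 11 to 122 bp), and 16344 of them (39.9%) were exactly 25 bp. A width of at most 25 bp was found in 82.4% of gained, 31.1% of kept and 76.0% of lost footprints. Widths over 40 bp made up 5.26% of gained, 48.7% of kept and 7.61% of lost footprints. Gained footprints of -60 or lower were wider, with a median of 48 bp.

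Most gained footprints were neighbours of a footprint that day 0 already had. The median gap to the nearest day 0 footprint was 70 bp (quartiles 34 and 178). A day 0 footprint lay within 50 bp of 15883 gained footprints (38.8%) and within 100 bp of 61.5%. A kept footprint lay within 100 bp of 57.3% of them and a lost one within 100 bp of 9.61%. For lost footprints the median gap to the nearest day 5 footprint was 146 bp. At the overlap limit itself, 126 gained footprints touched a day 0 footprint with 0 bases between and 3147 lay 1 to 10 bases away. On the other side of the limit, 86 kept footprints shared 1 base with their day 0 partner and 2101 shared 1 to 10 bases.

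Inside their sites, gained footprints lay further out than kept ones. Their centres were a median of 219 bp from the centre of the day 5 site, against 167 bp for kept and 186 bp for lost footprints. The central 50% of the site held 68.6% of gained, 78.1% of kept and 62.1% of lost footprints. Neighbouring gained footprints of 1 site had centres a median of 191 bp apart.

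The sites that held them were large and strong, and most had a weaker DNase score on day 5 than on day 0. Of 99050 day 5 sites that overlapped a day 0 site, 21149 (21.4%) held a gained footprint. They were a median of 1123 bp wide, against 386 bp for all sites open on both days. The median was 915 bp for sites with a lost footprint, 652 bp with a kept one and 271 bp with none on either day. A single gained footprint was found in 11631 sites, 2 in 4700 and 3 or more in 4818. A kept footprint was present in 80.9% of the sites with a gained one, and a lost footprint in 37.1%, so gain and loss often shared a site. The median site score of the sites with a gained footprint was 63.03 and 84.2 in the day 5 replicates and 170 and 146 in the day 0 replicates. All sites open on both days had medians of 9.33 and 12.0 on day 5, against 43.8 and 45.0 for day 0. Sites with a lost footprint had day 0 medians of 150.1 and 122.3, and sites with a kept one 114.5 and 103.5. High day 0 scores were thus shared by all 3 classes. The sources used here do not say how scores were scaled between days, so a general shift of the scores and a change in DNase cutting cannot be told apart.

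Set against that general shift, sites with gained and with lost footprints differed. The median log2 ratio of the mean site score, day 5 over day 0, was -1.16 over all sites open on both days. It was -0.93 in sites with a gained footprint, -1.07 with a kept one and -1.63 with a lost one, classes that share sites. Sites with both a gained and a lost footprint had -1.04, and sites with a lost and no gained one -2.16. In the 3527 sites that held a gained footprint and had no footprint at all on day 0, the median log2 ratio was -0.42. The mean score was higher on day 5 in 35.3% of these 3527 sites, against 10.6% of all sites open on both days and 0.171% of sites with a lost and no gained footprint.

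**Figure D2:**
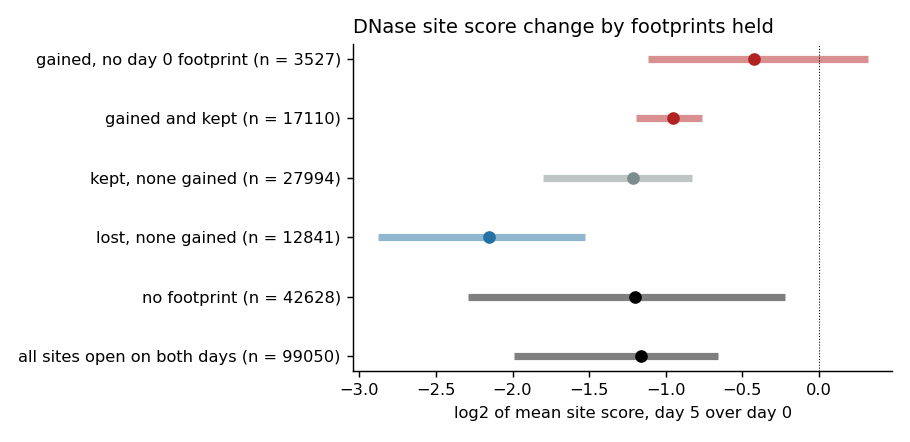
The log2 ratio of mean DNase site score, day 5 over day 0 (horizontal axis), for classes of sites open on both days by the footprints they hold; points are medians and bars run from the lower to the upper quartile over sites. Sites with a gained footprint and no day 0 footprint have a median of -0.42, and sites with a lost and no gained footprint have a median of -2.16.

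The share of day 5 footprints that were gained was ordered by the change of the site. In sites whose score was more than 1 log2 unit lower on day 5, 21.7% of day 5 footprints were gained, 15561 against 26509 lost on day 0. In sites whose score was more than 1 log2 unit higher on day 5, 85.9% were gained, 861 against 8 lost. The median score of gained footprints was -23.6 in the first of these classes and -30.4 in the second. By count, though, 38034 gained footprints (92.9%) lay in sites with a lower mean score on day 5.

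Strong sites held more of the gained footprints. When sites open on both days were cut into 5 groups of equal size by day 0 score, a gained footprint was found in 4.99% of the weakest group and in 51.04% of the strongest. The other classes rose as well, from 0.565% to 44.05% for lost and from 1.98% to 75.9% for kept footprints. The rise is thus not particular to gained footprints. The ratio of gained to lost footprints was 10.2 in the weakest group, 1.47 in the next, 0.826 in the middle, 0.977 in the fourth and 1.34 in the strongest.

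Day 5 footprints of any kind were nearly confined to sites that day 0 had as well. Of all day 5 footprints, 98.5% overlapped a day 0 site. Of day 5 sites that overlapped a day 0 site, 49.8% held a footprint, against 0.663% of the 164837 that overlapped none. Of the 164837, 137253 had a day 5 score of 2 to 5, where 0.252% held a footprint, against 8.21% with a day 0 partner. The shares without and with a day 0 partner were 1.99% and 24.9% at scores of 5 to 10. They were 21.2% and 66.6% at 10 to 20, and 11.7% and 92.6% at 20 to 50. Among sites with a score of at least 50, they were 3.6% of 250 sites and 94.9% of 19133 sites. Which regions the authors searched is not stated in the sources used here, and its part in the count was not tested.

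A small set of strong gained footprints lay mostly in sites scored higher on day 5. There were 443 at a score of -60 or lower, in 332 sites. The site had a higher mean score on day 5 for 68.6% of them, with a median log2 ratio of 0.54, against 1.65% of kept footprints of the same strength. Lost footprints of that strength, 862 in all, lay in sites with a median log2 ratio of -2.95. Of the 443, 36.8% lay in sites with no day 0 footprint, against 11.02% of all gained footprints. On chromosome Y there were 71 of the 443. Without that chromosome the site was higher on day 5 for 62.9% of the remaining 372. The limit of -60 was not planned. These footprints were picked by footprint lists of the same DNase samples as the site scores, so no test is given.

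The strongest gained footprint, at the end of the scale with a score of -1000, was chromosome 4, 64158811 to 64158870 (mm9, 1-based, as are all positions here). It lay 26 bp from a day 0 footprint in a site scored 480.6 and 428.0 on day 5 and 463.0 and 627.5 on day 0, so the days overlapped. The next pair, on chromosome 2 at 98508006 to 98508056 (score -517.2) and 98508059 to 98508083 (score -462.2), shared 1 site scored 8198.1 and 8297.6 on day 5 and 5522.4 and 7750.5 on day 0, with both day 5 values above both day 0 values. That site had the highest mean day 0 score of all sites open on both days. These 3 footprints lay in no 1 kb vertex. No blacklist of regions with unreliable signal in this build was used here, so whether these sites, the crowded sites or those on chromosome Y belong to one was not tested.

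The fourth strongest was of another kind. Chromosome 19, 44719583 to 44719653, is 71 bp wide with a score of -452.3 and is the only footprint of its site, which had none on day 0. The site scored 84.2 and 125.5 on day 5, against 17.5 and 11.4 on day 0, and the days did not overlap. A PU.1 peak covered it in both day 5 libraries, with fold enrichments of 6.56 and 8.09, and no day 0 library had a peak there. The fifth, chromosome 6, 88291298 to 88291360, had a score of -390.4 in a site that scored 75.3 and 114.6 on day 5, against 16.2 and 9.49 on day 0, also with no day 0 footprint and with no PU.1 peak in any library.

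A further look was taken at the 10 strongest gained footprints in sites without a day 0 footprint, a set chosen after their scores were seen. In all 10 sites both day 5 replicates scored above both day 0 replicates. The same held for 4.63% of all sites open on both days. It held for 18.9% of sites with a gained and no day 0 footprint. The 10 were picked by footprint lists of the same DNase samples, so their count is given without a test. The ratio of mean site score, day 5 over day 0, ran from 1.81 on chromosome 15, 74559911 to 74559965, to 10.99 on chromosome 1, 183324083 to 183324147. These footprints were 42 to 108 bp wide. A day 5 PU.1 peak was present at 1 of the 10, the chromosome 19 footprint named above, and a day 0 PU.1 peak at none. All 10 lay in a ChIA-PET vertex, of which 2 had an edge on day 5 and none on day 0. Those 2 were both on chromosome 7, at 135532652 to 135532718 with 1 edge and at 110976374 to 110976481 with 2 edges.

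**Figure D3:**
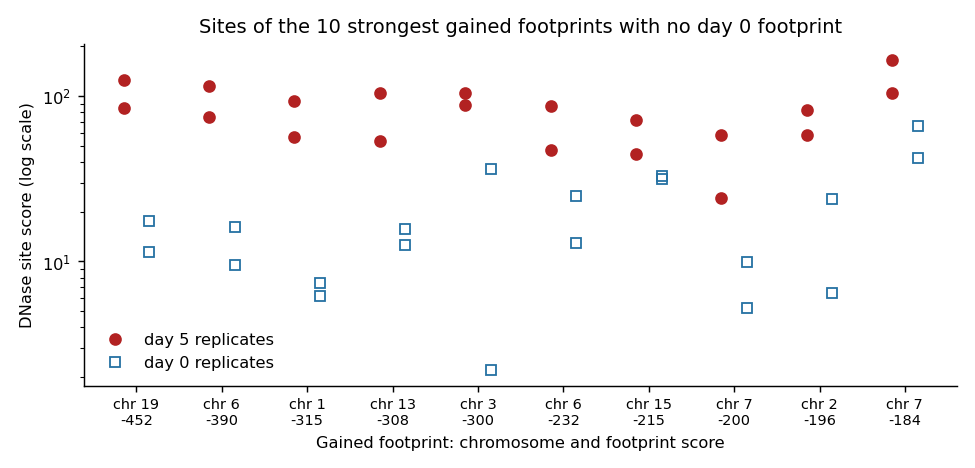
DNase site score (vertical axis, log scale) in both day 5 replicates (filled circles) and both day 0 replicates (open squares) for the sites of the 10 strongest gained footprints in sites without a day 0 footprint; the horizontal axis gives each footprint's chromosome and score. Both day 5 points stand above both day 0 points in all 10 sites, with ratios of the means from 1.81 to 10.99. The same order holds in 18.9% of all sites with a gained and no day 0 footprint.

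More broadly, 4510 gained footprints (11.02%) lay in sites with no day 0 footprint, and 36420 in sites with one. The first set lay a median of 5953.5 bp from the nearest day 0 footprint, against 60 bp for the second. Scores of -40 or lower made up 13.3% of the first and 4.93% of the second, at medians of -25.3 and -24.2. The site was higher on day 5 for 40.5% of the footprints in the first set and 2.94% in the second.

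Gained footprints were spread over the chromosomes, with 1 exception. They made up 23.9% to 28.4% of day 5 footprints in sites open on both days on every chromosome but Y. On chromosome Y they made up 392 of 508, or 77.2% (exact 95% interval 73.3 to 80.8%), with 2 lost footprints and a median score of -35.8. These intervals cover counting error only, and footprints of 1 site are not independent. The 392 lay in 36 sites between positions 346351 and 2902051. Those sites had median scores of 29.3 and 28.0 on day 5 and 16.6 and 20.5 on day 0, so both day 5 medians were above both day 0 medians. The chromosome Y values, too, come without a blacklist check.

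A few sites were crowded. More than 20 gained footprints each were found in 12 sites, which held 418 gained footprints (1.02%), 161 kept and 4 lost, and 7 of the 12 were on chromosome Y and 2 on chromosome 11. The most crowded, chromosome 11, 3040539 to 3048763, held 57 gained and 49 kept footprints, and its scores of 52.4 and 51.6 on day 5 were below those of 60.1 and 80.6 on day 0. The second, chromosome Y, 2779611 to 2785058, held 48 gained and 18 kept footprints, with scores of 184.1 and 181.5 on day 5, against 145.2 and 148.2 on day 0. The next 3 were chromosome Y, 2856914 to 2861935 with 47 gained footprints, chromosome Y, 2880633 to 2887557 with 43, and chromosome 11, 3030802 to 3036231 with 35. In these 3 sites every day 5 score was above every day 0 score, as in 4.63% of all sites open on both days. The crowded sites on chromosome 11 named here had their strongest gained footprint in no 1 kb vertex, and those on chromosome Y in one. None was checked against a blacklist, as said above. Removing all 12 sites left the median score of gained footprints at -24.2.

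PU.1 peaks, which played no part in choosing the footprints, were scarce at gained ones. A PU.1 peak overlapped 2.06% and 4.10% of gained footprints in the day 5 libraries, against 7.58% and 11.5% in the day 0 libraries. Both day 5 values were below both day 0 values. The means were 3.08 ± 1.45% on day 5 and 9.53 ± 2.76% on day 0 (SD, n = 2 libraries each), a difference of -6.45 percentage points with p = 0.33 by a two-sided exact permutation test, the smallest p that 2 libraries against 2 allow. The lists behind these shares differed in length, with 10714 and 18614 peaks in the day 5 replicates and 34590 and 46077 in the day 0 replicates. With the 10714 best ranked peaks of each library the shares were 2.06% and 2.76% on day 5 and 2.98% and 3.51% on day 0, a difference of -0.84 points. With the lists the authors merged over replicates it was -3.09 points, with 459 gained footprints (1.12%) in a day 5 peak and 1724 (4.21%) in a day 0 peak.

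In every library gained footprints were in a PU.1 peak less often than kept or lost ones. Kept footprints were in a peak in 7.92% and 10.6% of cases in the day 5 libraries and in 15.3% and 21.9% in the day 0 libraries. Lost footprints were in a peak in 9.30% and 14.4% of cases on day 5 and in 26.4% and 32.8% on day 0. Gained minus kept was -5.87, -6.50, -7.68 and -10.4 percentage points in day 5 replicates 1 and 2 and day 0 replicates 1 and 2, a mean of -7.62 ± 2.02 (SD, n = 4 libraries). Gained minus lost averaged -14.4 ± 6.73 points and was negative in 4 of 4 libraries. Each gave p = 0.13 by the exact two-sided sign permutation over the 4 libraries, the smallest p this design allows. These libraries hold different days and so are not replicates of 1 condition.

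The gap was present at matched footprint strength as well. Among footprints with scores of -20 to -30, a PU.1 peak overlapped 2.00% and 4.03% of gained footprints on day 5 and 7.73% and 11.5% on day 0, against 6.35% and 10.2% of kept footprints on day 5 and 17.5% and 23.7% on day 0. Their mean difference was -8.13 points, and with 1 footprint per site it was -7.64. With the 10714 best ranked peaks the gained minus kept difference was -4.52 points over all scores.

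Stronger gained footprints were no richer in PU.1, whereas stronger lost ones were. At scores of -60 or lower, 1.35% and 1.35% of gained footprints were in a day 5 peak and 2.26% and 3.61% in a day 0 peak. For lost footprints of the same strength the shares were 22.4% and 31.4% on day 5 and 50.2% and 58.7% on day 0. Kept footprints stood between, at 9.62% and 11.2% on day 5 and 14.2% and 21.2% on day 0. With the 10714 best ranked peaks the strongest gained footprints were in a peak in 1.35% and 0.903% of cases on day 5, against 0.452% and 0.677% on day 0, which turns the order of the days round. Each of these gained shares rests on a handful of footprints, 6 of 443 in day 5 replicate 1.

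**Figure D4:**
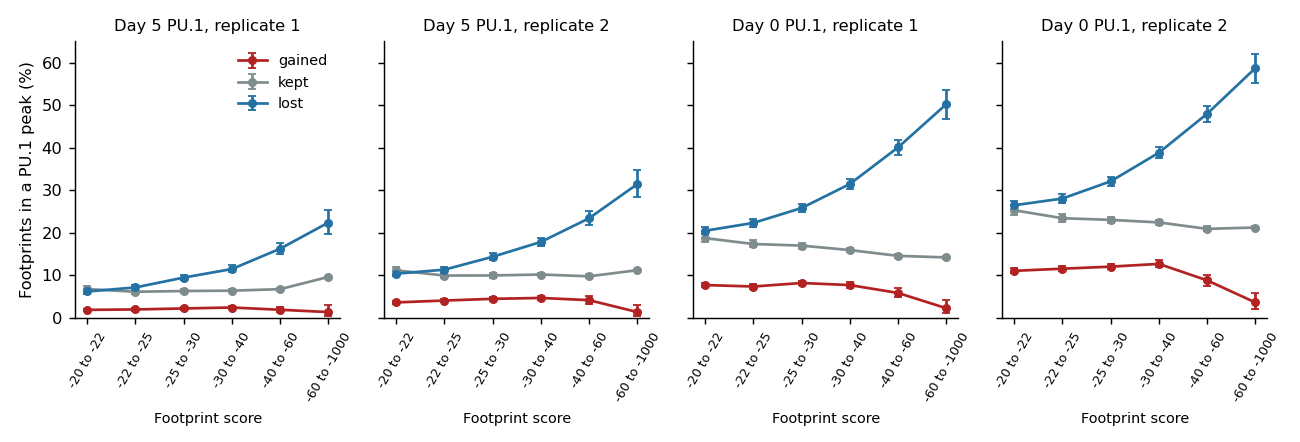
Share of footprints overlapping a PU.1 peak (vertical axis, percent) by footprint score (horizontal axis, weak to strong) in the 2 day 5 and the 2 day 0 PU.1 libraries; points are shares and bars are exact 95% binomial intervals that cover counting error only. In all 4 libraries the gained footprints form the lowest line, and at scores of -60 or lower they are at 1.35% to 3.61%, below the lost footprints at 22.4% to 58.7%.

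Gained footprints in sites without a day 0 footprint met PU.1 peaks less often than those in other sites. There, 0.953% and 2.79% of gained footprints were in a day 5 peak and 3.06% and 4.50% in a day 0 peak. In sites with a day 0 footprint the shares were 2.19% and 4.26% for the day 5 libraries, against 8.14% and 12.3% for the day 0 ones. The difference was negative in 4 of 4 libraries, with a mean of -3.91 points and p = 0.13 by the exact two-sided sign permutation. Sites without a day 0 footprint also had weaker DNase scores, with day 0 medians of 15.65 and 14.4, against 200.9 and 171.2. Their day 5 medians were 10.41 and 13.65, against 76.55 and 101.1. The part of site strength in the PU.1 difference was not tested.

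Counted by footprint, 35335 gained footprints (86.3%) were in no peak of any of the 4 libraries. The share in no peak was 74.6% for kept and 64.96% for lost footprints. A peak in both day 5 libraries and neither day 0 library was seen at 12 gained footprints (0.0293%), against 174 kept (0.154%) and 6 lost ones (0.0175%). The reverse, both day 0 and neither day 5 library, was seen at 1297 gained (3.17%), 5323 kept (4.71%) and 3638 lost footprints (10.6%). The day 0 peak lists are the longer ones, so the 2 counts of a class cannot be set against each other. For the 12, the fold enrichments over background ran from 3.43 to 8.09, and 3 of the 12 had scores of -40 or lower. After the chromosome 19 footprint described above came chromosome 14, 35486963 to 35486979 (score -44.0, fold 4.43 and 4.83) and chromosome 9, 32503501 to 32503515 (score -40.9, fold 3.74 and 3.46). Both of these lay within 2 bp of a day 0 footprint. The site was scored lower on day 5 for 11 of the 12, the chromosome 19 site being the exception.

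Where a peak did cover a gained footprint, the footprint sat towards its side. The median distance from the centre of the gained footprint to the peak summit was 55.5 and 57.5 bp on day 5, in peaks with a median width of 164 and 173.5 bp. It was 88.5 and 83.5 bp on day 0, in peaks with a median width of 283 and 271 bp. Kept footprints lay nearer, at 44.0 and 45.0 bp on day 5 and 64.0 and 62 bp on day 0, and lost ones nearer again, at 36.5 and 39.0 bp on day 5 and 52.5 bp in both day 0 libraries. The summit itself fell inside the gained footprint in 10.5% and 7.99% of cases on day 5 and in 4.58% and 6.43% on day 0. Kept footprints, which are wider, covered it in 25.5% and 24.4% of cases on day 5 and 16.7% and 17.5% on day 0. Peaks with a gained footprint were a small share of all peaks, 6.94% and 7.79% on day 5, against 7.16% and 8.18% on day 0.

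The strongest PU.1 peaks with a gained footprint were in the merged lists of both days. By score of the merged day 5 list these were on chromosomes 19, 7, 11, 6 and 5. The first covered the weak gained footprint at chromosome 19, 47207642 to 47207652 (score -21.3), 43 bp from a day 0 footprint. Its fold enrichment was 55.7 and 67.9 on day 5, against 30.7 and 29.8 on day 0. The score in the merged lists went the other way, at 241.9 on day 5 and 264.9 on day 0. The DNase site scored 82.6 and 99.1 on day 5, against 434.7 and 283.4 on day 0. The other 4 footprints, with scores of -20.7 to -27.2, also lay in sites scored lower on day 5 and in merged peaks of both days. Of these 4, the chromosome 7 footprint met no peak of day 5 replicate 2. The chromosome 11 footprint met none of day 5 replicate 1 and shared 1 base with the merged day 5 peak.

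PU.1 peaks of day 0 were found again on day 5 more often, at matched peak score, where a footprint had been gained than where one had been lost. In the merged day 0 list, 794 peaks held a gained and no lost footprint and 3376 a lost and no gained one. When all peaks were cut into 5 groups of equal size by score, 30.4% of the first and 11.4% of the second were in the merged day 5 list in the middle group, 61.96% and 23.6% in the fourth, and 94.96% and 74.5% in the strongest. In these 3 groups peaks with kept footprints alone lay between, at 21.5%, 48.4% and 86.0%. In the weakest group the shares were 4% where a footprint was gained (exact 95% interval 1.48 to 8.50%) and 3.14% where one was lost (1.51 to 5.69%), and the intervals overlapped. In the middle group, day 5 replicate 1 held a peak at 79.6% of the first kind and 43.5% of the second, and replicate 2 at 98.3% and 78.97%. Without matching, the merged shares were 38.4% and 34.1%. The DNase site score moved with these classes as well. The median log2 ratio of the site under the peak, day 5 over day 0, was -1.02 for the 794 peaks with a gained and no lost footprint and -2.33 for the 3376 with a lost and no gained one. In the middle group it was -1.03 and -2.20, and its part in the difference was not tested.

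Counted over all footprints, polymerase II edges touched gained and kept ones at close shares. With 1 footprint per site the gained share was the higher over all scores, and the lower at scores of -20 to -30. A 1 kb vertex held 39259 gained footprints (95.9%). The vertex had an edge for 11780 of them (28.8%) on day 5 and for 11055 (27.01%) on day 0. The shares were 28.6% on day 5 and 28.7% on day 0 for kept footprints, and 23.6% and 25.2% for lost ones. With the strongest footprint of each site alone they were 20.9% on day 5 and 19.5% on day 0 for gained footprints, against 12.6% and 12.1% for kept and 18.3% and 19.1% for lost ones. Among footprints of -20 to -30 with 1 per site, gained ones had 22.1% on day 5 and 20.7% on day 0, against 23.3% and 23.4% for kept ones. An edge on day 5 alone was found for 3750 gained footprints and on day 0 alone for 3025, against 2216 and 2768 lost footprints. With 3 kb vertices the order of the days turned round for gained footprints, to 46.5% on day 5 and 47.8% on day 0, while lost footprints had 40.7% on day 5 and 47.1% on day 0. The day 5 minus day 0 difference was higher in gained than in lost footprints by 3.38 points with 1 kb vertices and by 5.09 points with 3 kb vertices. With 1 list of edges per day these differences have no replicate check.

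At strong scores the difference between days was wider. Of the 443 gained footprints of -60 or lower, 72 (16.3%, exact 95% interval 12.9 to 20.0%) lay in a vertex with a day 5 edge and 39 (8.80%, 6.34 to 11.8%) in one with a day 0 edge. Day 5 edges alone were found at 39 and day 0 edges alone at 6. A vertex held 70.4% of these gained footprints, against 98.1% of lost ones of the same strength, and the shares are of all footprints. Lost footprints went the other way, with 117 (13.6%) on day 5 and 149 (17.3%) on day 0. With 3 kb vertices the gained shares were 38.2% on day 5 and 28.0% on day 0, with 52 footprints at day 5 edges alone and 7 at day 0 edges alone. With 3 kb vertices every gained class from -20 to -40 had the lower share on day 5, as with 46.3% against 48.1% at -20 to -22. At -40 to -60 the days were level at 40.3%.

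**Figure D5:**
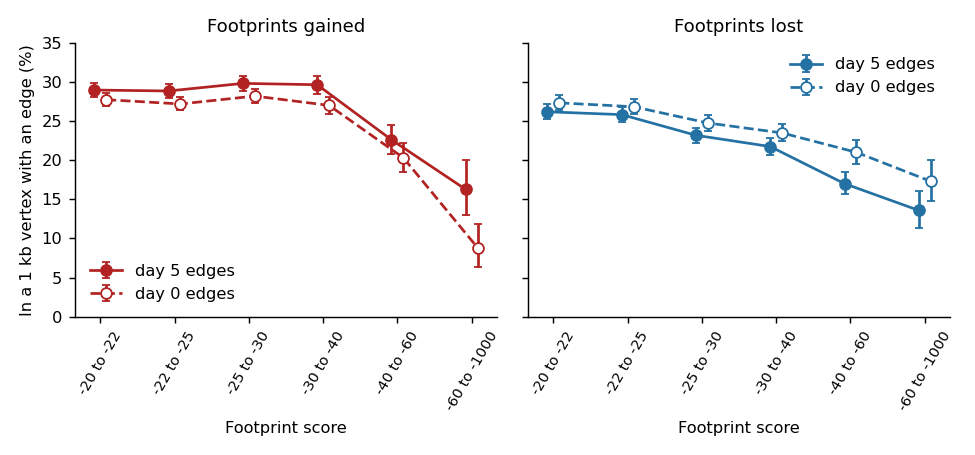
Share of footprints in a 1 kb vertex with a polymerase II edge (vertical axis, percent) by footprint score (horizontal axis, weak to strong) for gained footprints (left) and lost footprints (right), with day 5 edges as filled circles and day 0 edges as open circles; bars are exact 95% binomial intervals that cover counting error only. With these 1 kb vertices, gained footprints have the higher share on day 5 in every score class, with 16.3% against 8.80% at -60 or lower. Lost footprints have the lower share on day 5 in every class.

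Counted by vertex, gained footprints were more numerous relative to lost ones where edges were listed on day 5 alone. Vertices with edges on day 5 alone, 2208 in all, held 1.69 gained footprints per lost one. Vertices with edges on both days held 1.37, those with edges on day 0 alone 1.09 and those with none 1.07. A gained footprint was present in 71.1% of vertices with day 5 edges alone, 83.4% of those with edges on both days, 61.4% of those with day 0 edges alone and 11.9% of those with none. Vertices with edges were also wider, with medians of 2071.5 bp for day 5 alone, 3033 bp for both days and 1000 bp for neither day, so footprints were also set per length. Per 10 kb of vertex there were 7.58 gained footprints at day 5 edges alone, 8.17 at both days, 5.72 at day 0 edges alone and 1.68 at none.

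Vertices with more day 5 edges held more footprints of every class, and the gained share did not follow the number of edges. Per 10 kb there were 1.82 gained footprints at 0 edges, 7.39 at 1 edge and 10.7 at 5 to 20 edges, with lost footprints at 1.70, 4.99 and 7.46. Gained footprints made up 26.3% of day 5 footprints at 0 edges, 27.3% at 1 edge, 25.5% at 2, 26.7% at 3 to 4 and 26.26% at 5 to 20. Of 4618 day 5 edges, 3194 (69.2%) had a gained footprint in both end vertices, as did 3147 of 4776 day 0 edges (65.9%). Kept footprints, which are more numerous, were in both ends of 90.8% of day 5 edges and 88.8% of day 0 edges, and lost ones in both ends of 47.1% and 54.04%. The 5 vertices with most day 5 edges had 14 to 20 of them. The strongest gained footprint of the first, chromosome 3, 96361552 to 96361576 (score -57.9), lay in a vertex with 20 day 5 edges and 28 day 0 edges. Chromosome 19, 29328316 to 29328326 (score -32.8) had 20 edges on day 5 and 18 on day 0, and chromosome 3, 95462485 to 95462503 (score -35.2) had 18 and 17. Chromosome 10, 79578615 to 79578654 (score -29.7) had 15 edges on day 5 and 3 on day 0, and chromosome 15, 31459350 to 31459387 (score -35.5) had 14 and 8. Of these 5 footprints, 4 lay within 16 bp of a day 0 footprint, and the sites of all 5 had a lower mean score on day 5.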

How the data were processed

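Footprints and their chosen groups came from deposited lists in mm9 coordinates, with sample groups from the titles. Members and lists were chosen with earlier results of these data known. The authors deposited 1 footprint list per day, in which no score exceeds -20, and DNase sites per replicate and intersected over replicates, with scores of at least 2. Edges, also in 1 list for each day, carry a score with no stated definition. Bowtie, bedtools and mm9 are named for DNase-seq, and Bowtie 1.0.0 and MACS2 2.0.10 for PU.1, in the submitters' processing notes; the footprint caller and other steps are not stated there. PU.1 peaks were deposited by the authors with a fold enrichment (a ratio), a -log10 p and, in the lists merged over replicates, a score and an irreproducible discovery rate, which is a q-value and was not used for a filter. RNA levels were FPKM computed by the authors. None of these values gives read depth, so depth per sample is unknown.

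Overlap meant at least 1 bp. A site took, from each replicate list, the score of the site it overlapped by the most bases, the replicates of a day were averaged, and ratios were taken on the log2 scale. Overlaps were computed in Python 3.11.15 with numpy 2.4.6 and pandas 2.3.3 and tested on 7500 simulated intervals against bedtools 2.31.1. Shares per PU.1 library were compared by exact permutation over libraries (scipy 1.17.1), and single shares have exact Clopper-Pearson 95% intervals. Named regions were the 5 strongest gained footprints, the 5 in the best scored day 5 PU.1 peaks, the 5 in the vertices with most day 5 edges and the 5 most crowded sites, none on chromosome 18. The planned motif search and the link to genes were not run, since no genome or annotation of this build was used here. Alternatives were other overlap rules, score limits, equal list lengths, 3 kb vertices, 1 footprint per site, leaving out each replicate and, chosen after seeing the data, leaving out chromosome Y or crowded sites, the comparisons with lost footprints and their alternatives, and equal peak numbers against kept footprints.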

Additional observations from a re-analysis of the deposited data

How the results depend on the processing

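Of 80 alternative values, 66 kept their direction and, for counts and levels, stayed near the reported value. Counts of gained footprints taken as near ran from 39347 to 45552. Some of the 66 could not have come out otherwise. Leaving out 1 PU.1 library could not turn a sign round, since every day 5 share lay below every day 0 share and all 4 within-library differences were negative. The replicate block leaves its difference unchanged by design. The count of gained footprints was 25047 when no day 0 footprint was allowed within 50 bp and 8536 at a score of -30 or lower, and leaving out 1 DNase replicate gave 41106 to 41547. The median score was -23.9 without neighbours within 50 bp, -24.7 when 50% of a footprint had to be covered to count as the same, -24.5 with equal list lengths and -35.3 at -30 or lower, where the median width was 27 bp. With 3 kb vertices the share with an edge was 46.5% on day 5 and 47.8% on day 0, so that the difference was -1.29 points, against 1.77 with 1 kb vertices, and the cause was not tested. With 1 footprint per site the shares were 20.9% on day 5 and 19.5% on day 0. For gained footprints of -60 or lower, the day 5 minus day 0 share in a PU.1 peak was 0.56 points with equal peak numbers, against -1.58 with all peaks, and the cause was not tested; without chromosome Y their site was higher on day 5 in 62.9%. The day 5 minus day 0 share in a PU.1 peak over all gained footprints was -5.66 points when the footprint had to lie wholly inside the peak. Leaving out 1 PU.1 library gave -8.40 to -4.50 points for day 5 minus day 0, -8.20 to -6.68 for gained minus kept and -16.8 to -12.1 for gained minus lost.

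The replicate numbers of the PU.1 libraries are not said to mark a shared culture, and replicate 2 had the higher share on both days. With the replicate number as a block the day 5 minus day 0 difference was -6.45 points with an exact permutation p = 0.5, the smallest that 2 pairs allow.

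Depth is unknown, the scaling of site scores between days is not given, and the footprint and edge lists have no replicates, so their differences rest on 1 list per day. Footprints of 1 site or vertex are not independent. The motif and gene analyses were not run, nor the alternatives that belong to them.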
